A study of Mus musculus with 6 samples.

Results

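Complement is the set of plasma and membrane proteins that tags and lyses targets through a cascade of proteases. The genes described here are 32 mouse genes of that system, chosen by name from a list of complement components, receptors and regulators: the C1q chains and the proteases they carry, the lectin-pathway starters, C2, C4 and C3, the alternative-pathway components, the terminal components, the receptors, and the inhibitors. All 32 symbols were found in the deposited tables, each on its own row, among 55483 features per library. Total RNA was taken from whole oviducts of females that had been mated at 6 to 8 weeks of age and were pregnant, at gestational day 3, with the plug seen on day 1. There were 3 libraries labelled Mettl3 d/d and 3 labelled Mettl3 f/f, and d/d and f/f below stand for libraries so labelled. Mettl3 encodes the enzyme that writes N6-methyladenosine on RNA; by common usage f/f marks homozygotes for a loxP-flanked allele and d/d those in which Cre has deleted it. Which Cre driver was used, which exons were deleted and how many animals made up a library were not given in the labels. The p-values therefore measure only the spread among these libraries, and that spread may be technical.

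Levels are in FPKM (counts of fragments divided by transcript length and by the mapped total), so they are per length and can be set side by side between genes. The values of a group are listed in the order of replicates 1, 2 and 3. The low values implied 16600000 to 17800000 fragments per library. Mettl3 itself was at 19.8, 20.3 and 24.5 FPKM in d/d replicates 1 to 3, against 11.8, 12.1 and 13.2 FPKM in f/f, 1.74-fold higher in d/d (limma adjusted p = 0.0145). One level for the whole gene does not reveal a deleted exon. Every direction below therefore rests on the labels. Markers of epithelium, stroma and smooth muscle were abundant in all 6 libraries, but not all were level between groups. Of 6 stromal markers Lum was called higher and Pdgfra lower in d/d, by the test given below. Of 5 smooth muscle markers Des was called lower, and the rest of both lists were not called. Cyp11a1, an ovarian marker that was not called, was at 13.5 FPKM in f/f replicate 3 and at 0.725 FPKM or less in the other libraries. Replicate 1 of each group was low in Hoxa10, which uterine tissue expresses more than oviduct, with 4.24, 9.47 and 12.4 FPKM in d/d replicates 1 to 3 and 3.48, 26.5 and 25.1 FPKM in f/f. Without replicate 1 of both groups, 8 members were called higher in the test given below, against 9 with all libraries. Calls over all features then numbered 1634, against 1701. That fit does not even out Hoxa10, since the d/d libraries left (9.47 and 12.4 FPKM) lie below the f/f libraries left (26.5 and 25.1 FPKM). The part of the Hoxa10 difference in the results was not tested. Mitochondrial transcripts took 6.50%, 6.76% and 9.70% of the FPKM total in d/d and 4.47%, 5.70% and 3.61% in f/f, and the part of that difference in the results was not tested.

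Complement starts in 3 ways that meet at C3. In the classical pathway C1q binds antibody, dying cells or other surfaces and carries the proteases C1r and C1s, which cut C4 and C2. The lectin pathway does the same with MASP proteases. In the alternative pathway factor D cuts factor B bound to C3b, and the enzyme so formed, held together by properdin, cuts C3. The fragments C3a and C5a signal to leukocytes through their receptors, and C5b to C9 build the membrane attack complex. In most tissues C1q is made by macrophages and dendritic cells. C3 is made by liver and by many epithelia, among them that of the rodent reproductive tract, where estrogen raises it.

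The members were more often higher than lower in the libraries labelled d/d. Of the 32 genes, 24 had a mean of at least 1 FPKM and were tested. The test was limma on log2(FPKM + 1), with Benjamini-Hochberg adjustment over all 15438 features tested and an adjusted p under 0.05 as the threshold for a call. In it 9 members were called higher (C1qa, C1qb, C1qc, C3, Hc, C3ar1, C5ar1, Cd55 and Clu) and 1 lower (C7). Over all features 6.04% were called higher and 4.97% lower. The members were chosen with earlier results of these data known, so the comparison with all features is not a neutral one. The median log2 change of the tested members, d/d minus f/f, was 0.73, against -0.01 over all features tested. Of the tested members, Hc, C7 and C5ar2 passed the filter only through the group in which they were high. The other 21 held 8 of the members called higher and none called lower, with a median log2 change of 0.79. The 3 values of each group did not overlap in 14 members that were higher and 2 that were lower in d/d (12 and 1 among those 21), where 18.1% and 17.4% of all features behaved so. The count of members called higher rests on few libraries. It was 5, 3 and 6 when d/d replicate 1, 2 or 3 was left out, and 8, 1 (C1qb) and 3 when f/f replicate 1, 2 or 3 was left out. Calls over all features moved as well, from 1701 to 885, 635 and 652 and to 1795, 308 and 525 in the same fits. In whole tissue, fewer or more cells of a type and less or more RNA per cell cannot be told apart.

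**Figure D1:**
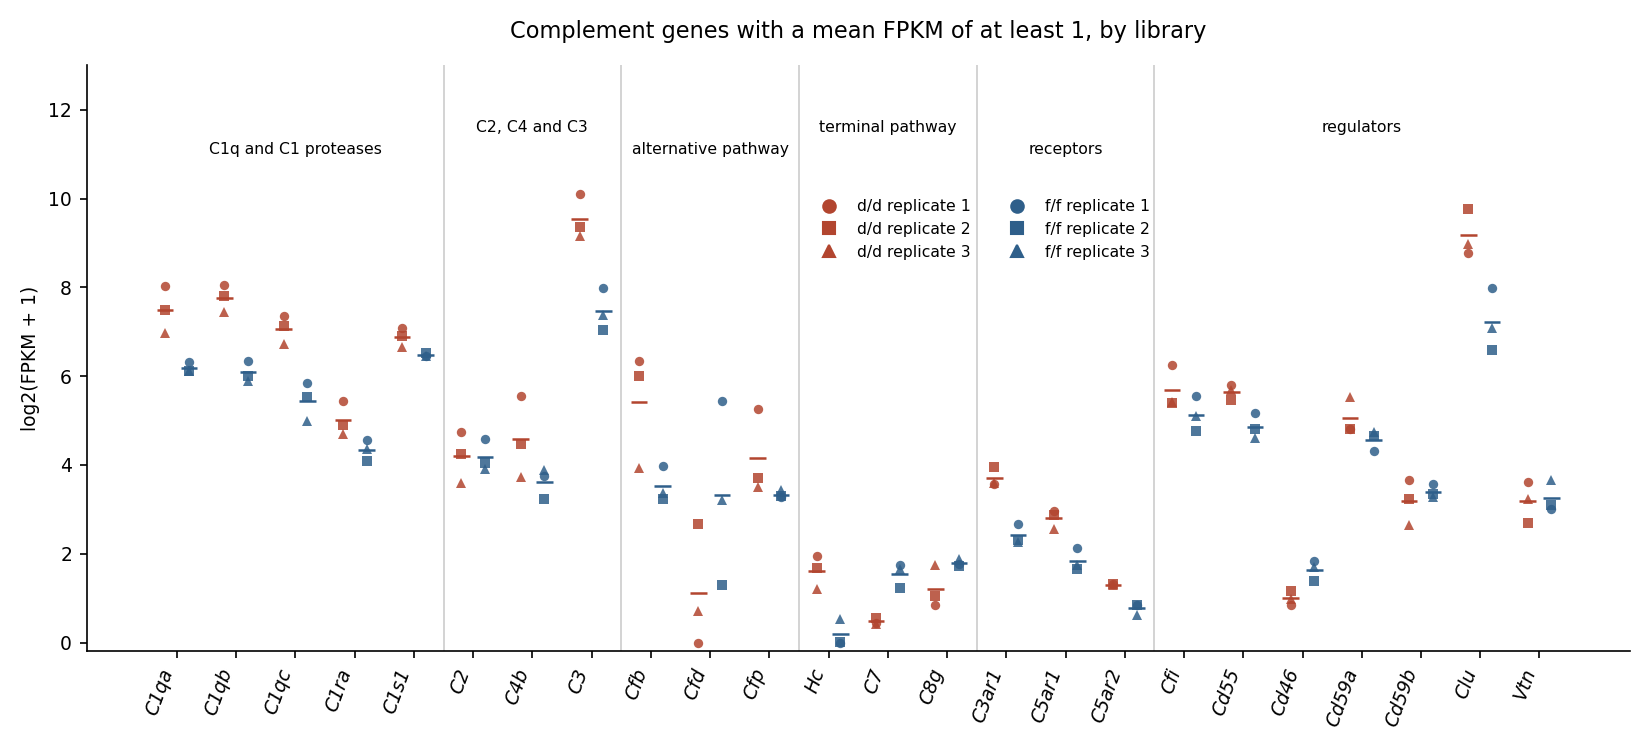
Each point is 1 library, plotted as log2(FPKM + 1) for the 24 complement genes with a mean of at least 1 FPKM, with d/d left of f/f for each gene, bars at the group means and genes grouped by role. C3 and Clu hold the highest points, and the C1q genes, C3 and Clu stand clear of f/f in all 3 d/d libraries, whereas Cfd spreads widely in both groups.

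The summed level of all 32 members was 2801, 2486 and 1828 FPKM in d/d replicates 1 to 3, against 1068, 660 and 739 FPKM in f/f. All 3 d/d sums lay above all 3 f/f sums. C3, Clu and the C1q chains supplied most of it in every library. C3 made up 39.4%, 26.2% and 31.4% of the sum in d/d replicates 1 to 3 and 23.6%, 19.7% and 22.2% in f/f. The C1q chains held a like share in both groups, at 22.7% ± 1.47 in d/d and 22.8% ± 3.49 in f/f (SD, n = 3 each). These shares describe the mix of transcripts and carry no test.

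**Figure D2:**
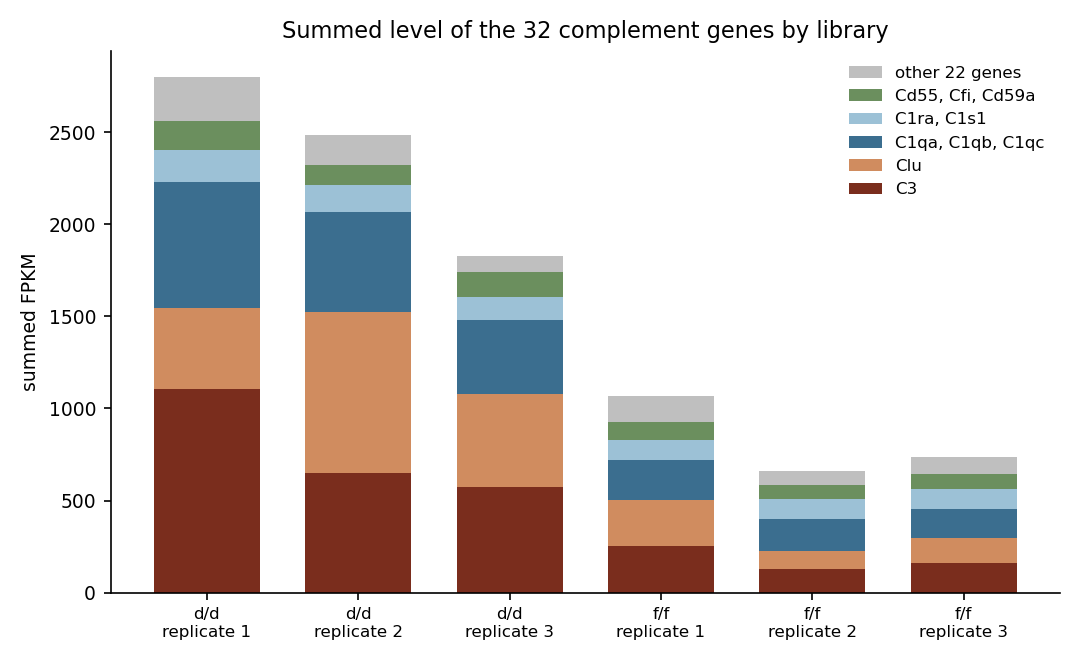
Stacked bars give the summed FPKM of the 32 complement genes in each library, split into C3, Clu, the C1q chains, the C1 proteases, Cd55 with Cfi and Cd59a, and the other 22 genes. The 3 d/d bars, from 1828 to 2801, stand above the 3 f/f bars, from 660 to 1068, and the C3 segment takes a larger share in d/d.

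The C1q chains rose together. C1qa, C1qb and C1qc encode the A, B and C chains of C1q and lie side by side on chromosome 4 (GRCm38, minus strand): C1qb from 136880129 to 136886187, C1qc from 136889804 to 136893065 and C1qa from 136895917 to 136898803. All 5 genes of C1q and its proteases were higher in d/d at an unadjusted limma p under 0.05, which 15.4% of all features tested also were, and 3 were called. C1qb was at 264, 223 and 172 FPKM in d/d replicates 1 to 3, against 80.2, 63.4 and 58.7 FPKM in f/f. It was 3.26-fold higher in d/d (log2 change 1.68, SE 0.19, limma adjusted p = 0.00757), and it passed in all 13 alternatives run (limma adjusted p from 0.00644 to 0.0430). C1qc was at 162, 138 and 105 FPKM in d/d, against 56.4, 45.1 and 30.6 FPKM in f/f (log2 change 1.62, SE 0.25, limma adjusted p = 0.0140). Its call was lost without d/d replicate 2 (limma adjusted p = 0.0526) or f/f replicate 2 (0.0564). C1qa was at 259, 179.6 and 125 FPKM in d/d, against 79.2, 68.0 and 68.4 FPKM in f/f (log2 change 1.32, SE 0.25, limma adjusted p = 0.0236). That call was lost without d/d replicate 2 (limma adjusted p = 0.0750), f/f replicate 2 (0.0903) or f/f replicate 3 (0.0792) and with no filter on low values (0.0507). In none of the 3 genes did the groups overlap, and d/d replicate 1 was the highest and d/d replicate 3 the lowest of their group in each. The number of fragments behind these values was large: about 2421 to 3776 for C1qb in the d/d libraries and 836 to 1189 in the f/f libraries.

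The 3 chains did not keep an exact ratio to each other. C1qa over C1qb was 0.981, 0.804 and 0.729 in d/d replicates 1 to 3, against 0.988, 1.07 and 1.17 in f/f, with every d/d library below every f/f library. C1qc over C1qb was 0.614, 0.619 and 0.611 in d/d, against 0.703, 0.712 and 0.521 in f/f, where the groups overlapped.

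The letters upstream of the C1q genes and of C3 are shown because these abundant members were all called higher. RefSeq promoter windows (GRCm38.p6) matched 24 of the 32 members, and C1qa and Clu were not among them. The 250 bases before the RefSeq start are given for C1qb (chr4:136886201-136886450), C1qc (chr4:136892915-136893164) and C3 (chr17:57228137-57228386), all on the minus strand and written 5′ to 3′. The GENCODE gene of C1qc starts farther upstream, so 151 bases of its window lie inside that gene. Capitals mark matches on either strand to GAGGAA, the core bound by the myeloid factor PU.1 and other ETS proteins, or to TTGCNNAA, a C/EBP motif.
C1qb: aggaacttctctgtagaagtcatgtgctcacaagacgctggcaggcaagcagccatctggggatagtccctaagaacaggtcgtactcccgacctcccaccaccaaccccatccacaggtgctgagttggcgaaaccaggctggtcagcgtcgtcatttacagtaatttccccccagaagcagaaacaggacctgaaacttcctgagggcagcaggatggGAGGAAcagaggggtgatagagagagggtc
C1qc: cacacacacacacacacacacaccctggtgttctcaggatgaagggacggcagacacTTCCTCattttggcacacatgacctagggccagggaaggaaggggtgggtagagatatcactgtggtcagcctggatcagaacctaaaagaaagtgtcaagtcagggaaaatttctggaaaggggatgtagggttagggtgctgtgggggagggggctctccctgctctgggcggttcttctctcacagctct
C3: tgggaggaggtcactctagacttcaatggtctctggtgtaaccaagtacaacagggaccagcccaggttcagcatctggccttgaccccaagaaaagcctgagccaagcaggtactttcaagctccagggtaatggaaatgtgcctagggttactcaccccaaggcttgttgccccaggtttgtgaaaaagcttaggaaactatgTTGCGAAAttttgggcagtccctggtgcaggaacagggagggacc
The GAGGAA core lay from 30 to 25 bases before the start of C1qb and, on the opposite strand, from 193 to 188 bases before the start of C1qc. Of all 32851 windows of the same length, 23.3% held it. So did 5 of the 27 member windows, the others being those of Fcna, Cd59a and C5ar2, none of them called. TTGCNNAA lay from 45 to 38 bases before the start of C3. It was held by 9.56% of all windows and by 4 of the 27 member windows. A TATA box, TATAAA on either strand, was found in none of the 3 and in 12.4% of all windows. A match describes letters in the window and is not evidence of binding.

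Myeloid markers were higher in d/d as well, and so were lymphocyte markers. Of 14 myeloid markers that are not complement genes, 12 were called higher and Ptprc, the pan-leukocyte marker, and Cd163, a scavenger receptor of resident macrophages, were not called. Cd163 was at 1.69, 1.43 and 1.26 FPKM in d/d, against 3.57, 2.11 and 2.54 FPKM in f/f. The summed FPKM of the 14 was 1266, 1400 and 1096 in d/d replicates 1 to 3, against 473, 432 and 389 in f/f. Per unit of that sum, in which the lysozyme gene Lyz2 is the most abundant, the C1q chains were at 0.540, 0.387 and 0.367 in d/d, against 0.457, 0.408 and 0.406 in f/f. These ratios overlapped, with means of 0.431 ± 0.0949 in d/d and 0.424 ± 0.0287 in f/f (SD, n = 3 each). Of 7 lymphocyte markers 3 were tested, all without overlap and higher in d/d: Cd79b, a B cell receptor chain, was called (2.65-fold, limma adjusted p = 0.0298), and Cd3e of T cells (2.49-fold, 0.0785) and Jchain of antibody-secreting cells (4.98-fold, 0.0533) were not. Over all features tested, 6.04% were called higher and 18.1% were higher without overlap. The 7 lymphocyte markers summed to 102.9, 160.2 and 55.6 FPKM in d/d, against 34.0, 24.7 and 10.5 FPKM in f/f. Most of that sum came from Jchain in every library. The part of myeloid or lymphoid cell number in the C1q change was not tested.

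The proteases that C1q carries showed smaller differences. C1ra, on chromosome 6, was at 42.2, 28.8 and 25.1 FPKM in d/d, against 22.7, 16.1 and 19.7 FPKM in f/f (1.64-fold, log2 change 0.67, limma adjusted p = 0.0938, 95% interval 0.16 to 1.18). C1s1, its neighbour there, was at 134, 118 and 99.3 FPKM in d/d, against 86.7, 90.9 and 86.5 FPKM in f/f (1.33-fold, log2 change 0.40, limma adjusted p = 0.0936). Neither was called, although no d/d value of either gene fell among the f/f values. Both genes have close copies, C1rb and C1s2, that stood at 0.166 FPKM or less and 1.35 FPKM or less in every library. All 3 lectin-pathway members were near the floor. Masp1, a MASP protease gene that overlaps the more abundant Rtp4 on the other strand, ran from 0.514 to 0.930 FPKM over the 6 libraries. Fcna, the gene of the carbohydrate-binding ficolin A, ran from a value listed at 0 to 1.05 FPKM, and Masp2, the protease that cuts C4 and C2, from a value listed at 0 to 0.188 FPKM, and none was tested.

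C3 had the highest level of any member in both groups except in d/d replicate 2 and showed a large rise. C3 encodes the component on which all pathways meet and lies on chromosome 17 (57203970 to 57228136, minus strand). It was at 1104, 652 and 574 FPKM in d/d replicates 1 to 3, against 252, 130.0 and 164 FPKM in f/f. Every d/d library was above every f/f library by more than 2-fold. The ratio of means was 4.26 (log2 change 2.08, SE 0.32, limma adjusted p = 0.0140), and C3 missed the threshold when f/f replicate 2 (limma adjusted p = 0.0561) or replicate 3 (0.0534) was left out.

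Epithelial markers did not move with C3 as a group. Of 8 such markers, Epcam and Cdh1 were called higher, Krt18 was called lower and 5 were not called. The summed FPKM of the 8, most of it from the oviductal glycoprotein gene Ovgp1, was 5009, 3330 and 5783 in d/d, against 6476, 5099 and 5895 in f/f. C3 per unit of that sum was 0.220, 0.196 and 0.0992 in d/d, against 0.0390, 0.0255 and 0.0278 in f/f, a 5.58-fold higher mean ratio in d/d with no overlap. Hepatocyte markers were nearly absent: the 6 summed to 0.619 to 0.702 FPKM in d/d and 0.217 to 0.691 FPKM in f/f, with Ttr listed at 0 in every library. C3 over C1qb was 4.19, 2.92 and 3.34 in d/d, against 3.15, 2.05 and 2.80 in f/f, and those ranges overlapped. Which cells made the C3 transcript was not tested.

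**Figure D3:**
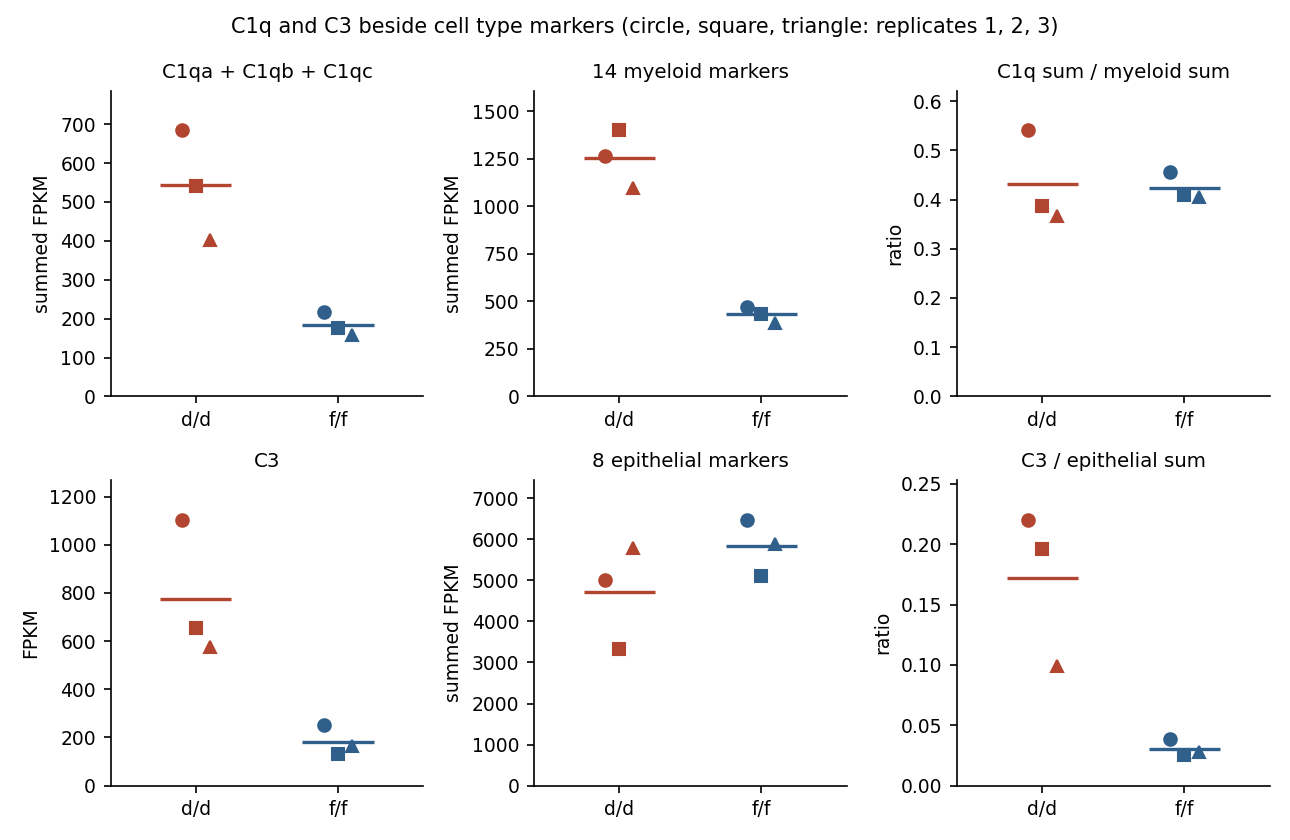
Dots are libraries and bars are group means, on axes that start at 0; the upper row gives the summed FPKM of the C1q chains, of 14 myeloid markers and their ratio, the lower row C3, 8 epithelial markers and their ratio. The C1q ratio overlaps between d/d (0.367 to 0.540) and f/f (0.406 to 0.457), whereas the C3 ratio runs from 0.0992 to 0.220 in d/d and from 0.0255 to 0.0390 in f/f.

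C2 and C4b did not pass the test, and C4a was too low to test. C2, the protease subunit of the classical convertase, was at 25.9, 18.0 and 11.1 FPKM in d/d, against 23.1, 15.4 and 14.1 FPKM in f/f (log2 change 0.02, 95% interval from -0.73 to 0.77). It overlaps Zbtb12 on the other strand, which ran from 8.84 to 12.25 FPKM and whose reads cannot be told from those of C2. On their own strand, C2 and the factor B gene Cfb both overlap Gm20547, which was listed at 0 in every library. C4b, the gene of mouse C4, which C1s cuts and which then binds to surfaces, was at 46.3, 21.1 and 12.3 FPKM in d/d, against 12.5, 8.38 and 13.8 FPKM in f/f (log2 change 0.97, limma adjusted p = 0.202). Its ratio of means was 2.30 and fell to 1.45 without d/d replicate 1. C4a, a near-identical copy on the same stretch of chromosome 17, ran from 0.318 to 0.492 FPKM in d/d and from 0.271 to 1.21 FPKM in f/f. Reads of the pair may have been split between them, so both values are uncertain. The spread within d/d was wide for C2 and C4b, with replicate 1 at the top for both.

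In the alternative pathway, no gene passed the test, and factor B spread widely among d/d libraries. Cfb, which encodes the protease subunit that pairs with C3b, was at 79.9, 63.2 and 14.2 FPKM in d/d replicates 1 to 3, against 14.6, 8.40 and 9.36 FPKM in f/f. D/d replicate 3 lay within the f/f range, and the gene was not called (4.85-fold, log2 change 1.90, limma adjusted p = 0.0942, 95% interval 0.45 to 3.35). It was called without d/d replicate 3 (log2 change 2.65, limma adjusted p = 0.0201). Cfp, the gene of properdin, was at 37.0, 12.0 and 10.4 FPKM in d/d, against 8.64, 8.80 and 9.77 FPKM in f/f (limma adjusted p = 0.255), and its ratio of means, 2.19, fell to 1.24 without d/d replicate 1.

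Cfd encodes factor D, also called adipsin because fat cells make much of it. It was listed at 0 in d/d replicate 1 and was at 5.31 and 0.630 FPKM in d/d replicates 2 and 3, against 42.5, 1.46 and 8.32 FPKM in f/f. The groups overlapped and the gene was not called (log2 change -2.20, limma adjusted p = 0.239, 95% interval -4.84 to 0.44). The log2 change was -1.14 without f/f replicate 1, -2.97 without d/d replicate 2 and -0.58 without replicate 1 of both groups. The summed FPKM of 6 adipocyte markers, among them Fabp4 and Adipoq, was 0.292, 4.58 and 0.726 in d/d replicates 1 to 3, against 26.3, 1.40 and 5.39 in f/f. Libraries took the same order in Cfd and in that sum. The share of adipose tissue in the Cfd values was not tested.

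**Figure D4:**
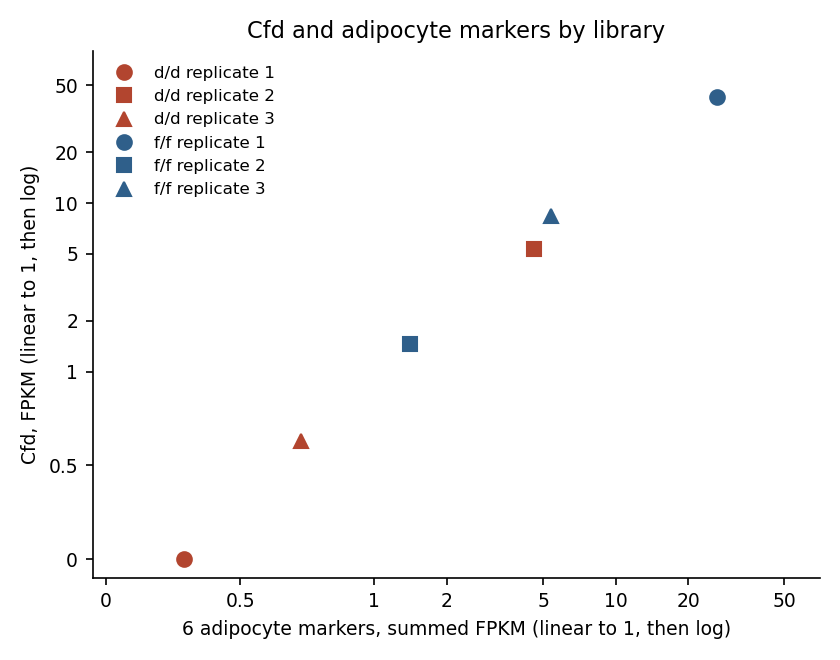
Each point is 1 library, with the summed FPKM of 6 adipocyte markers across and Cfd in FPKM upward, both axes linear up to 1 and logarithmic above it. The points climb in 1 order from d/d replicate 1 (0.292 across, Cfd listed at 0) to f/f replicate 1 (26.3 and 42.5).

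Terminal components were low, and the calls among them went in opposite directions. Hc, the mouse gene of C5, was at 2.86, 2.22 and 1.31 FPKM in d/d replicates 1 to 3. In f/f it was listed at 0 in replicate 1 and was at 0.0108 and 0.455 FPKM in replicates 2 and 3. No d/d value fell among the f/f values (log2 change 1.43, SE 0.30, limma adjusted p = 0.0318). C7, a component of the membrane attack complex, was at 0.359, 0.472 and 0.343 FPKM in d/d, against 2.37, 1.35 and 2.17 FPKM in f/f, the groups again apart (5.02-fold lower in d/d, log2 change -1.08, SE 0.24, limma adjusted p = 0.0369). About 15, 19 and 14 fragments lay behind the d/d values of C7 and 102, 58 and 90 behind the f/f values. Each of these genes passed the filter on low values only through the group in which it was high, so their place among the tested genes depends on the difference itself. Hc missed the threshold once d/d replicate 3 (limma adjusted p = 0.0506) or f/f replicate 1 (0.0559), 2 (0.110) or 3 (0.0601) was left out, and went under the filter without d/d replicate 1 or 2 or without replicate 1 of both groups. C7 missed it once d/d replicate 1 (limma adjusted p = 0.0866), 2 (0.0866) or 3 (0.0920), f/f replicate 2 (0.0725) or replicate 1 of both groups (0.117) was left out, and went under the filter without f/f replicate 1 or 3.

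The other terminal members were at the floor or not called. C8g, which encodes the gamma chain of C8 and lies on the opposite strand of the more abundant Fbxw5 (reads of which cannot be told from its own), was at 0.788, 1.06 and 2.33 FPKM in d/d, against 2.42, 2.28 and 2.71 FPKM in f/f (limma adjusted p = 0.205), and its 0.565-fold ratio of means moved to 0.375 without d/d replicate 3. C8b, the beta chain of C8, was at 0.438, 0.150 and 0.303 FPKM in d/d and listed at 0 in all 3 f/f libraries. C6, which binds C5b to start the membrane attack complex, ran from 0.780 to 1.64 FPKM in d/d and from 0.180 to 1.18 FPKM in f/f. C9, which forms the ring of the pore, did not exceed 0.391 FPKM in any library. C8b, C6 and C9 were not tested.

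Of the receptors, C3ar1 and C5ar1 were called higher. C3ar1, the C3a receptor of myeloid cells (chromosome 6, 122847138 to 122856161, minus strand), was at 10.8, 14.4 and 11.1 FPKM in d/d, against 5.40, 3.92 and 3.82 FPKM in f/f (2.77-fold, log2 change 1.29, SE 0.18, limma adjusted p = 0.0105). Its call was lost without f/f replicate 2 (limma adjusted p = 0.0528). Per unit of the myeloid marker sum it was at 0.00966 ± 0.000977 in d/d and 0.0101 ± 0.00120 in f/f (SD, n = 3 each), ranges that overlapped. C5ar1, the main C5a receptor, was at 6.85, 6.35 and 4.90 FPKM in d/d, against 3.36, 2.14 and 2.37 FPKM in f/f (2.30-fold, log2 change 0.96, SE 0.20, limma adjusted p = 0.0288). That call was lost without any single library but f/f replicate 1 (limma adjusted p from 0.0523 to 0.107) and with no filter (0.0689). Neutrophils carry C5ar1 as well: 8 neutrophil markers summed to 83.1, 99.3 and 28.7 FPKM in d/d and 88.4, 5.76 and 3.58 FPKM in f/f, with Mpo and Elane listed at 0 in every library and Csf3r the only marker called, and higher. Their part in the C5ar1 values was not tested. C5ar2, the second C5a receptor, was at 1.48, 1.48 and 1.46 FPKM in d/d, against 0.807, 0.797 and 0.534 FPKM in f/f, groups that did not overlap (log2 change 0.53, limma adjusted p = 0.147). It was called when no variance trend was used (limma adjusted p = 0.0387), and like Hc and C7 it passed the filter on low values only through the group in which it was high. Cr2, a receptor for C3 fragments on B cells, did not exceed 0.246 FPKM in any library and was not tested.

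Among the inhibitors, Cd55 and Clu were called higher and the rest were not called. Cd55, also known as decay-accelerating factor, dismantles the C3-cutting enzymes on a cell's own membrane. It was at 54.9, 43.2 and 50.5 FPKM in d/d, against 35.2, 27.1 and 23.2 FPKM in f/f, with no overlap (1.74-fold, log2 change 0.79, SE 0.17, limma adjusted p = 0.0344). Clu encodes clusterin, a chaperone that also blocks assembly of the membrane attack complex. It was at 439, 871 and 503 FPKM in d/d, against 251, 95.8 and 135 FPKM in f/f, again with no overlap (3.76-fold, log2 change 1.96, SE 0.40, limma adjusted p = 0.0287). For Clu it was d/d replicate 2 that stood highest, and in that library Clu exceeded C3. Both calls were lost with no filter (limma adjusted p = 0.0629 for Cd55 and 0.0625 for Clu). They were also lost without any single library except f/f replicate 1, with limma adjusted p from 0.0652 to 0.118 for Cd55 and from 0.0521 to 0.0919 for Clu.

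**Figure D5:**
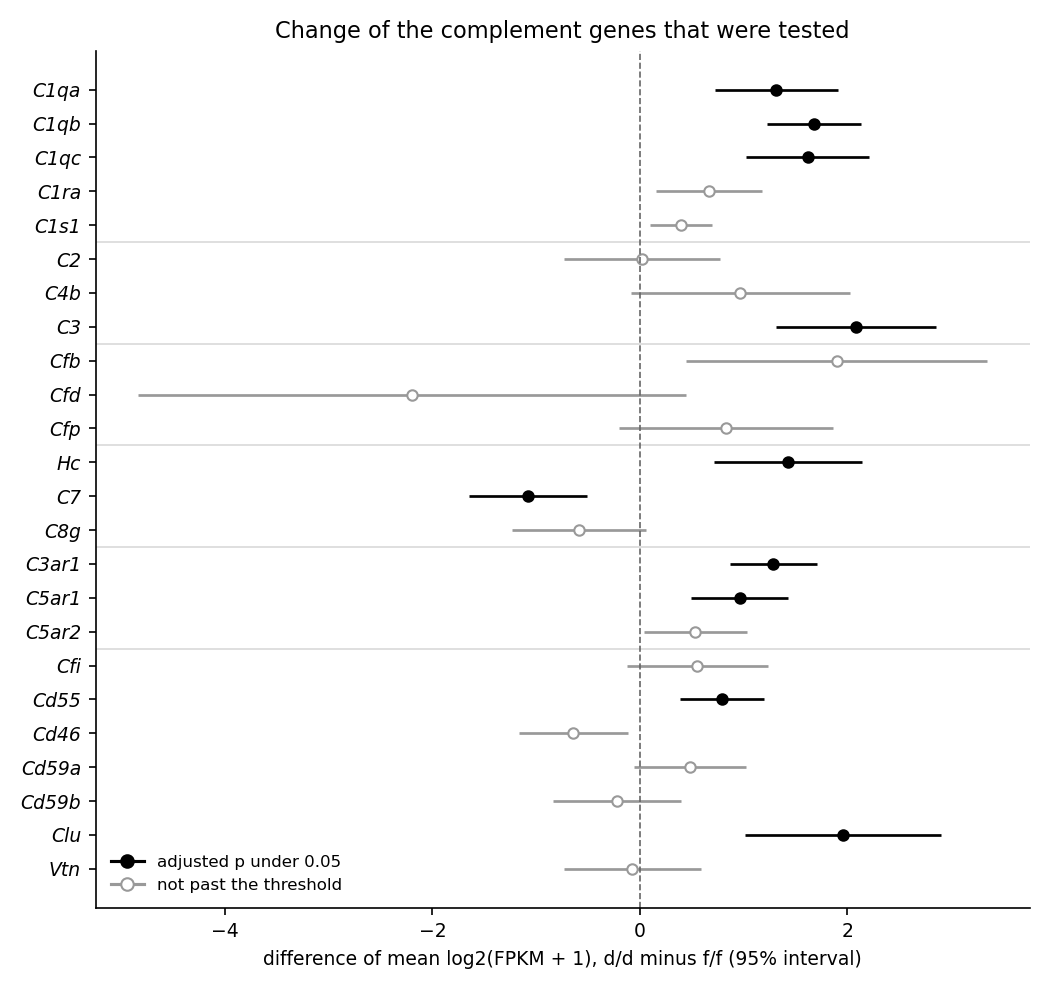
The horizontal axis gives the change on the log2(FPKM + 1) scale, d/d minus f/f, as points with 95% intervals, for the 24 complement genes tested, ordered by role down the page. Filled points passed the threshold: C3 (2.08) and Clu (1.96) lie farthest right among them and C7 (-1.08) is the only filled point left of 0.

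The remaining inhibitors were not called, and their differences did not all run in 1 direction. Cfi, the plasma protease that destroys C3b, was at 74.9, 41.3 and 41.8 FPKM in d/d, against 45.7, 26.1 and 33.2 FPKM in f/f, which overlapped (log2 change 0.55, limma adjusted p = 0.250, 95% interval -0.13 to 1.24). Cd59a, the main membrane inhibitor of C9 insertion in mice, was at 27.1, 27.0 and 45.6 FPKM in d/d, against 19.0, 24.0 and 25.6 FPKM in f/f (limma adjusted p = 0.208). Cd59b, its neighbouring copy on chromosome 2, was at 11.7, 8.35 and 5.23 FPKM in d/d, against 10.9, 9.11 and 8.75 FPKM in f/f (log2 change -0.22, limma adjusted p = 0.608), and reads of the pair may have been split. Cd46, a membrane cofactor of factor I whose mouse expression is known mostly from testis, was at 0.799, 1.25 and 0.972 FPKM in d/d, against 2.59, 1.61 and 2.25 FPKM in f/f (2.13-fold lower in d/d, log2 change -0.64, limma adjusted p = 0.110). Its d/d values all lay below its f/f values. Vtn, the gene of vitronectin, which binds the terminal complex in plasma, was at 11.3, 5.47 and 8.39 FPKM in d/d, against 7.02, 7.54 and 11.7 FPKM in f/f (log2 change -0.07, 95% interval from -0.74 to 0.59).

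C3 was higher relative to Cfi and Cd55 in d/d, but not in every library relative to Clu. C3 over Cfi was 14.7, 15.8 and 13.7 in d/d replicates 1 to 3, against 5.52, 4.97 and 4.94 in f/f. C3 over Cd55 was 20.1, 15.1 and 11.4 in d/d, against 7.17, 4.80 and 7.07 in f/f. Neither of these ratios overlapped between groups. C3 over Clu was 2.51, 0.749 and 1.14 in d/d, against 1.01, 1.36 and 1.22 in f/f, and those ranges overlapped. These are ratios of transcript levels per length and carry no test.

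Of 28 further complement genes outside the 32, 25 were in the tables and 14 were tested, of which 1 was called higher in limma, a share near the 6.04% of all features. At an unadjusted p under 0.05, 5 were higher and 1 lower, where 15.4% and 14.2% of all features were. That gene was C1qbp, a mitochondrial protein first found as a binder of C1q, at 100.3, 109 and 114 FPKM in d/d, against 50.2, 60.0 and 67.7 FPKM in f/f (1.82-fold, log2 change 0.86, limma adjusted p = 0.0136). The median log2 change of the 14 was 0.11.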

How the data were processed

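The deposited tables hold 1 value per Ensembl gene and library. The unit was read as FPKM made by the authors, from the values (decimals, unequal library totals) and from the tools that the submitters' processing notes list, Cufflinks 2.2.1 and HISAT2 2.2.1. Those notes list the builds mm9 and mm10 with no role. Per the labels' protocols, libraries were made with a TruSeq RNA kit. The sources used here give no annotation, filter or strand setting, so reads of overlapping, antisense or near-identical genes cannot be told apart. Coordinates come from GENCODE M21 (GRCm38) by Ensembl ID, which matched 99.5% of features.

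Rows sharing a symbol (114 symbols, 0 of them members) were summed. Features with a mean of at least 1 FPKM over the 6 libraries entered limma (version 3.58.1, under R 4.3.3) as log2(FPKM + 1), with genotype as the only term, a trended empirical Bayes variance and two-sided tests. Log2 changes run d/d minus f/f; the added 1 shrinks those of low genes. Each fold is the ratio of the mean FPKM of d/d to that of f/f, given only where every library was above 0. An exact 0 can be a failed estimate, so such genes are described as listed at 0. The fit was run on simulated data with independent normal noise and known changes. That run checks the code and bears on none of the calls made here.

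The tables hold no read totals. Genes with a single transcript of more than 1500 nt and a value under 0.1 FPKM were used. Their FPKM times the length less 255 nt fell on a lowest step, set where values were densest and taken as 1 fragment. Of the values below that step or nearest to it among its multiples, 91.6% to 95.2% lay within 1% of it. Fragment numbers for members with a single annotated transcript follow from this. Replicates were not identical (0 pairs of libraries held the same values).

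The members, marker lists, ratios and motifs were chosen with earlier results of these data known. Members past the threshold or with a mean of at least 10 FPKM get all 6 values by rule, and others were given them where a sentence turned on them. Genes outside the members are named where called, and markers, copies, overlapping genes and a few uncalled complement genes are named too, chosen after their values were seen. Alternatives were a pseudocount of 0.1, no filter, median-of-ratios scaling, quantile normalization, no variance trend, the replicate number as a block, and fits without single libraries or without replicate 1 of both groups.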

Additional observations from a re-analysis of the deposited data

How the results depend on the processing

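All 10 member calls kept their direction in every alternative that could be fitted, and the pseudocount of 0.1, median-of-ratios scaling, quantile normalization and dropping the variance trend ended none of them. Over all features, calls numbered 1701, against 1107 with no filter, 276 with the replicate number as a block, and 308 to 1795 without single libraries. Members called higher numbered 9, against 5 with no filter, 3 with the replicate block (C1qb, C1qc and C3), and 1 to 8 without single libraries. The replicate numbers were not taken to pair the samples: the deviations of same-numbered libraries from their group means correlated at -0.22, -0.0585 and 0.00270 for replicates 1, 2 and 3, and no d/d library correlated best with the f/f library of its own number. C7, the only member called lower, made that count 0 with the replicate block, without replicate 1 of both groups and without any single library (0 to 0, C7 going under the filter without f/f replicate 1 or 3), with an unadjusted limma p of at most 0.0260 wherever it was tested. Fits without a library have 3 residual degrees of freedom in place of 4, or 2 without replicate 1 of both groups; the filter was applied anew in each.

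Directions turned only in members that were not called. C2 turned to a log2 change of -0.053 without replicate 1 of both groups and ran from -0.26 to 0.32 without single libraries, Cd59b from -0.47 to 0.048, and Vtn from -0.29 to 0.17. Low members rest on few fragments, and 8 of the 32 were too low to test.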

Other observations

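Members of the complement set tended to be highest in replicate 1 of each group. Among the 24 tested members, 16 had their highest d/d value in replicate 1 and 17 their highest f/f value in replicate 1, where 34.6% and 39.6% of all features tested did so. D/d replicate 3 was the lowest d/d library in 15, a count for which no share over all features was taken.

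Several complement genes outside the 32 members, chosen after their values were seen, were not called. Serping1, the gene of C1 inhibitor, was at 360, 277 and 222 FPKM in d/d, against 206, 192 and 189 FPKM in f/f (limma adjusted p = 0.114). The integrin chains of complement receptors, Itgam, Itgax and Itgb2, were 2.17-fold, 2.49-fold and 2.44-fold higher in d/d (limma adjusted p = 0.0768, 0.0527 and 0.0592). Colec11, a collectin that starts the lectin pathway, was at 0.912, 0.192 and 0.190 FPKM in d/d, against 1.76, 1.016 and 2.54 FPKM in f/f, 4.11-fold lower in d/d (limma adjusted p = 0.108), and passed the filter only through f/f. Cr1l, which encodes the rodent membrane inhibitor Crry, was at 26.4, 26.5 and 27.0 FPKM in d/d, against 24.3, 27.3 and 28.3 FPKM in f/f (limma adjusted p = 0.985).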
